A study of Mus musculus with 23 samples.

Results

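The genes described here set the electrical excitability of the muscle cell membrane: 6 ion channel genes and 1 subunit gene of the sodium pump. They were taken by symbol from the deposited gene tables, and all 7 (Scn4a, Clcn1, Kcnj2, Kcnh1, Kcnn3, Cacna1h and Atp1b1) were found among 32793 rows. RNA sequencing had been performed on C2C12, a line of mouse myoblasts (muscle precursor cells) that stop dividing and form multinucleated myotubes in medium with little serum. Control cells (WT) and cells labelled Runx1KO were harvested in growth medium with 20% FBS (day 0), or after 1, 3 or 6 days in differentiation medium with 2% horse serum, which makes 8 groups. The sample titles give the last time as day 6 and the series text as 5 days, and the titles were followed. WT on day 0 had 2 libraries and each other group 3. No group carried any other treatment or allele in the labels, which do not say how Runx1 was altered, whether either population was a clone, or whether replicates were separate cultures. The p-values therefore measure the spread between these libraries, which may be technical.

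In skeletal muscle, an action potential is carried along the membrane by a voltage-gated sodium channel whose pore is encoded by Scn4a. The ClC-1 chloride channel, encoded by Clcn1, and the inward rectifier Kir2.1, encoded by Kcnj2, then stabilise the membrane near its resting potential, and the sodium pump restores the ion gradients. Myoblasts that prepare to fuse become hyperpolarised, and Kir2.1 and the Eag1 channel encoded by Kcnh1 are known for their part in that step in human myoblasts.

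The upstream sequences of Kcnj2 and Clcn1 are shown because Kcnj2 had the largest tested difference between the genotypes among the members, and because Clcn1 was the member whose upstream sequence held the core letters bound by Runx factors. Each line gives the 250 bases before the start site, 5′ to 3′ on the gene's strand, from the RefSeq promoter table (GRCm38.p6). Capitals mark matches to the motifs searched. The Kcnj2 stretch is chr11:111065914-111066163 and the Clcn1 stretch chr6:42286435-42286684, both on the plus strand.
Kcnj2: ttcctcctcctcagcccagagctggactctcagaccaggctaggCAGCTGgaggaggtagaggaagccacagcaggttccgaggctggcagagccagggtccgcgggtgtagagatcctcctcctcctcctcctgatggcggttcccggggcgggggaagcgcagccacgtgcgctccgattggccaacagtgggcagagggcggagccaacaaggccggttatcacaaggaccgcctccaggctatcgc
Clcn1: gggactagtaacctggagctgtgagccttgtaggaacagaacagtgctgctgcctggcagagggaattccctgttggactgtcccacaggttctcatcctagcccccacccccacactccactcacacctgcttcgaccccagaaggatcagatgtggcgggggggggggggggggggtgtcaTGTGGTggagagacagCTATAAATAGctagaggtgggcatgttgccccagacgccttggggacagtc

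Windows from 250 bases before to 50 after the start site were searched on both strands. The motifs were TGTGGT (the Runx core), CCGGAA (the Ets core), CAGCTG (an E-box) and a loose MEF2 pattern. That pattern keeps the outer bases of the MEF2 consensus and allows any base in the middle. Of the 7 members, 6 had a window in the table. TGTGGT was found in the window of Clcn1, 67 bases before the start, and the loose MEF2 pattern was matched by CTATAAATAG, 51 bases before it. The window of Kcnj2 held CAGCTG 206 bases before the start. None of these letters was found in the windows of Scn4a, Kcnh1, Kcnn3 or Atp1b1. Among 32544 windows of the same length, 16.7% held TGTGGT, 14.98% CCGGAA, 16.4% CAGCTG and 3.70% the loose MEF2 pattern. The share with the full MEF2 consensus was not counted. A match describes the sequence and is not evidence of binding.

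Library totals ran from 22197606 to 23684077 counts, so depth differed by at most 1.07-fold. A count of 3 or fewer per library was taken as the floor (0.126 to 0.140 CPM, CPM being counts scaled to the TMM-adjusted library size), which covers counting error only. Runx1 mRNA was not lower in the libraries labelled Runx1KO. Its level was 84.0 CPM in WT and 119.8 CPM in the labelled knockout on day 0, and 153 and 311 CPM on day 6, with log2 differences (log2FC) of 0.51, 0.35, 0.54 and 1.02 on days 0, 1, 3 and 6 (adjusted p between 6.11e-10 and 0.00151). The labels do not say which part of the gene was altered, so these counts do not check the protein. The myoblast marker genes were above the floor in every group, 5 of 5, and their summed level was 1597 to 1662 CPM in WT and 2307 to 2416 CPM in the labelled knockout on day 0, and 1833 to 2195 and 2990 to 3503 CPM on day 6, without overlap on either day. The day 3 sums did not overlap either (2046 to 2158 and 2881 to 3152 CPM), and those of day 1 did (2069 to 2186 and 1969 to 2568 CPM). Of the 5 genes, 2 were higher and 1 lower in the labelled knockout on day 0, 2 and 2 on day 1, 3 and 0 on day 3, and 2 and 2 on day 6. The summed level of 7 myotube markers was 1.72 to 1.81 CPM in WT and 2.36 to 2.89 CPM in the labelled knockout on day 0. It was 33.9 to 65.9 and 112 to 159 CPM on day 1, 1890 to 2078 and 3224 to 5903 CPM on day 3, and 1565 to 1812 and 8730 to 10906 CPM on day 6. The highest day 3 sum was that of replicate 1 of the labelled knockout. In bulk RNA, fewer cells of a type and less RNA per cell cannot be told apart, and the part of myotube content in the member results was not tested. Marker lists of other cell types also differed between the groups. The 6 neuron or glia markers totalled 152.7 to 166 CPM in the labelled knockout and 84.8 to 94.6 CPM in WT on day 0. They were at 94.8 to 133 and 43.6 to 50.02 CPM on day 1. Their day 3 sums were 57.0 to 64.0 and 50.1 to 52.1 CPM, with 21.2 to 24.6 and 40.1 to 49.8 CPM on day 6. Snap25 was at 0 in all 23 libraries, and 1 to 3 of the 6 were at or under the floor in each group. The 3 smooth muscle markers totalled 176 to 205 CPM in the labelled knockout and 233 to 243 CPM in WT on day 0. They were at 127 to 175 and 287 to 346 CPM on day 1. Their day 3 sums were 203 to 219 and 404 to 452 CPM, with 293 to 303 and 440 to 527 CPM on day 6. These sums did not overlap on any day. Myh11 had a group mean of at most 0.10 CPM, and at most 1 of the 3 was at or under the floor in any group. The 3 immune markers, of which 1 was at or under the floor in both groups, summed to 4.24 to 7.78 CPM in WT and 10.1 to 12.2 CPM in the labelled knockout on day 6, and to at most 3.21 CPM on the other days. The part of these lists in the results was not tested.

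Of the 6 members tested against low counts (Cacna1h was left out), 3 passed at an adjusted p under 0.05 between the genotypes on day 0, all lower in the labelled knockout. Of these 3 the Clcn1 call ended in 24 of 30 alternative analyses, and on the log2(TPM + 1) scale the day 0 count was 1. Of the 14187 genes tested, 17.5% passed, 7.36% higher and 10.1% lower. On day 1 the count was 2, both lower, beside a background of 42.2% (22.9% higher, 19.2% lower). On day 3 it was 3, all lower, beside 43.2% (24.0% higher, 19.2% lower). On day 6 it was 4, with Scn4a and Atp1b1 higher and Kcnj2 and Kcnh1 lower, beside 42.9% (22.0% higher, 20.8% lower). The libraries of the genotypes did not overlap for 4, 3, 4 and 5 of the 6 on days 0, 1, 3 and 6, against 51.6%, 47.1%, 60.4% and 51.7% of all genes. Each member followed its own course, shown in the plot of levels by library.

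**Figure D1:**
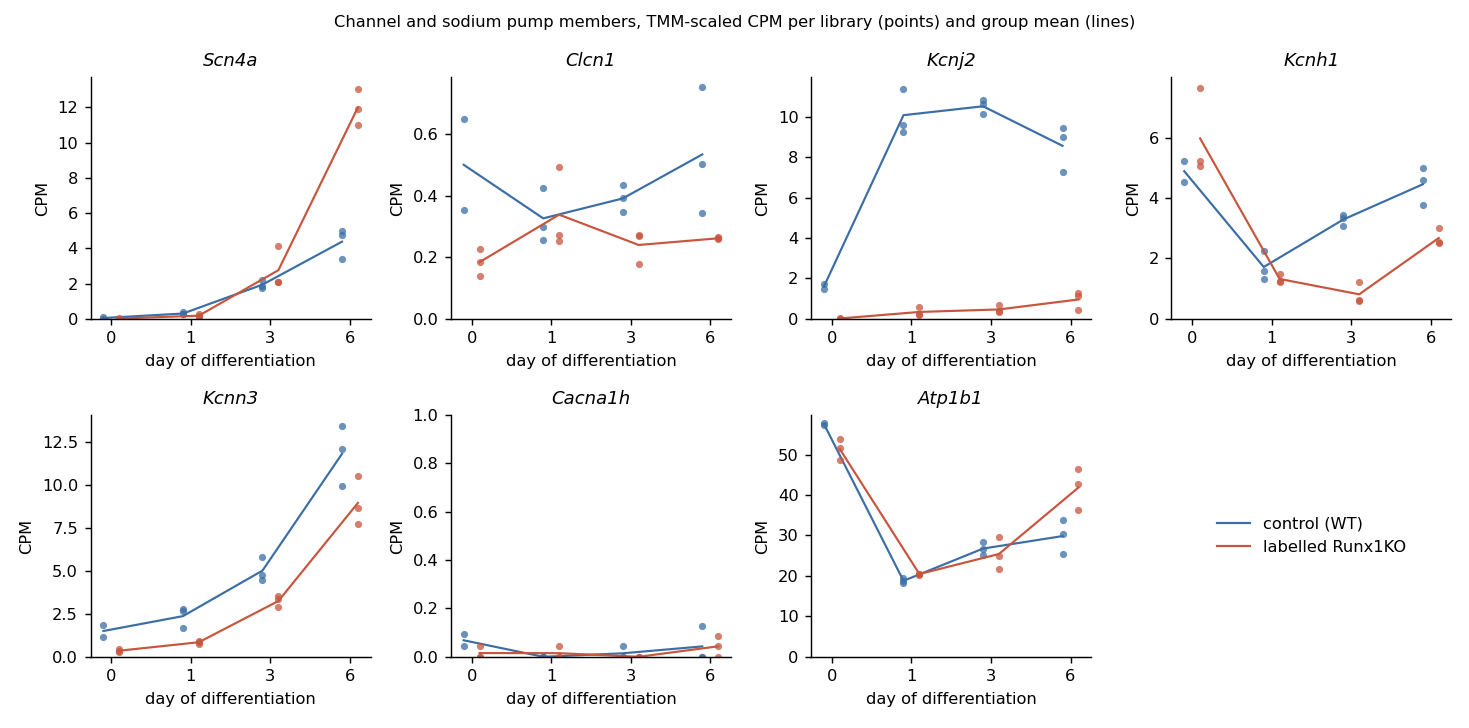
Level of each member in CPM (vertical axis) by day of differentiation (horizontal axis), with 1 point per library and lines through the group means, in blue for WT and red for libraries labelled Runx1KO. Kcnj2 reached at most 1.29 CPM in any library labelled Runx1KO, Scn4a was highest in the labelled knockout on day 6, and Cacna1h stayed near 0.

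Kcnj2 encodes Kir2.1, an inward rectifier that passes potassium inward more easily than outward and holds the resting potential. The gene lies on chromosome 11 from 111066164 to 111076821 on the plus strand (mm10, GENCODE vM21 annotation), with no overlapping gene. On day 0 its counts were 34 and 37 in the WT libraries and 1, 0 and 0 in those labelled Runx1KO. On day 1 its level was 9.26, 11.4 and 9.61 CPM in WT and 0.226, 0.209 and 0.582 CPM in the labelled knockout. On day 3 the levels were 10.1, 10.8 and 10.6 CPM in WT and 0.362, 0.670 and 0.359 CPM in the labelled knockout. All libraries of the labelled knockout lay below all WT libraries on these days. On day 6 the levels were 7.26, 9.45 and 9.02 CPM in WT and 1.15, 1.29 and 0.436 CPM in the labelled knockout, again without overlap.

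The Kcnj2 level was at least 11.6-fold lower on day 0, computed against the floor per library (adjusted p = 3.93e-07 by edgeR). It was 29.5-fold lower on day 1 (log2FC -4.88, SE 0.31, adjusted p = 1.53e-11). It was 22.4-fold lower on day 3 (log2FC -4.49, SE 0.29, adjusted p = 2.27e-11). It was 8.90-fold lower on day 6 (log2FC -3.15, SE 0.26, adjusted p = 8.31e-10). Even the highest library of the labelled knockout, at 1.29 CPM on day 6, lay below the lower WT library of day 0, at 1.496 CPM. The day 1 size leaned on 1 library, since without replicate 3 of the labelled knockout the Kcnj2 log2FC was -5.50 (adjusted p = 8.17e-11).

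Within WT, Kcnj2 rose early, and its later steps did not pass. Its mean went from 1.60 ± 0.154 CPM (SD, n = 2) on day 0 to 10.1 ± 1.15 CPM (n = 3) on day 1, a log2FC of 2.65 (SE 0.28, adjusted p = 3.26e-08). The later WT means were 10.5 ± 0.354 CPM on day 3 and 8.58 ± 1.16 CPM on day 6, and neither step passed the test (log2FC 0.06 and -0.30, adjusted p = 0.873 and 0.423). All WT libraries of day 6 lay below all of day 3, however. Kcnj2 also rose from the floor in the labelled knockout, by at least 2.45-fold on day 1, 3.35-fold on day 3 and 6.92-fold on day 6 (adjusted p = 0.000762, 9.90e-05 and 4.11e-07). The last step, from 0.464 ± 0.179 to 0.958 ± 0.458 CPM, had a log2FC of 1.04 (adjusted p = 0.0298), although the libraries of both days overlapped. That call ended without replicate 1 or 3 of day 3 or replicate 1 or 2 of day 6 (log2FC 0.76 to 0.91, adjusted p = 0.0998 to 0.168).

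The nearest tested genes on both sides of Kcnj2 were chosen by position. Map2k6, 540642 bases to the left, had log2FC between the genotypes of -0.53, -0.64, -0.18 and -0.60 on days 0, 1, 3 and 6, of which days 1 and 6 passed (adjusted p = 0.0212 and 0.0306). Sox9, 1705403 bases to the right, had log2FC of -0.11, -0.58, -0.51 and -0.20, of which days 1 and 3 passed (adjusted p = 0.00147 and 0.00387).

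Kcnh1 encodes the voltage-gated potassium channel Eag1. It lies on chromosome 1 from 192190774 to 192510159 on the plus strand, overlaps the gene Hhat on the other strand, and shares no exon base with it. On day 0 its level was 5.23 and 4.54 CPM in WT and 5.22, 5.04 and 7.65 CPM in the labelled knockout, and the groups overlapped. On day 1 it was 1.57, 2.25 and 1.32 CPM in WT and 1.26, 1.21 and 1.48 CPM in the labelled knockout, overlapping again. The genotypes then parted. On day 3 the levels were 3.44, 3.34 and 3.08 CPM in WT and 1.22, 0.625 and 0.583 CPM in the labelled knockout. On day 6 WT had 4.60, 3.77 and 4.99 CPM and the labelled knockout 3.00, 2.49 and 2.53 CPM. All libraries of the labelled knockout lay below all WT libraries on days 3 and 6.

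Between the genotypes, the Kcnh1 log2FC was 0.29 (adjusted p = 0.466) on day 0 and -0.38 (adjusted p = 0.249) on day 1, and neither passed. On day 3 Kcnh1 was 4.04-fold lower in the labelled knockout (log2FC -2.01, SE 0.26, adjusted p = 1.24e-06). On day 6 it was 1.67-fold lower (log2FC -0.74, SE 0.22, adjusted p = 0.0084). Replicate 1 of the labelled knockout on day 3, which had the most myotube marker RNA, also had the most Kcnh1 of its group, and without it the day 3 log2FC was -2.43 (adjusted p = 5.59e-07).

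Both genotypes lost Kcnh1 RNA on the first day of differentiation, by a log2FC of -1.51 in WT and -2.18 in the labelled knockout (adjusted p = 1.73e-05 and 5.08e-08). In WT it then rose from day 1 to day 3 (log2FC 0.94, adjusted p = 0.00563), and on day 6 its mean of 4.45 ± 0.623 CPM (n = 3) was not distinguishable from the day 0 mean of 4.89 ± 0.493 CPM (n = 2; log2FC -0.13, adjusted p = 0.63). In the labelled knockout the lowest mean came on day 3, at 0.810 ± 0.357 CPM, 7.33-fold below day 0 (adjusted p = 1.16e-09). It rose from day 3 to day 6 (log2FC 1.72, adjusted p = 1.53e-05), and day 6 stayed 2.23-fold below day 0 (adjusted p = 4.77e-05). The change since day 0 differed between the genotypes by a log2 value of -2.30 on day 3 (SE 0.35, adjusted p = 8.45e-05).

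Kcnn3 encodes SK3, a small-conductance potassium channel opened by calcium, which immature and denervated muscle is known to carry. It lies on chromosome 3 from 89520164 to 89675132 on the plus strand, with no overlapping gene. On day 0 its level was 1.85 and 1.16 CPM in WT and 0.272, 0.467 and 0.324 CPM in the labelled knockout. On day 1 it was 2.76, 1.70 and 2.65 CPM in WT and 0.767, 0.837 and 0.940 CPM in the labelled knockout. On day 3 it was 4.79, 5.81 and 4.47 CPM in WT and 3.53, 3.35 and 2.87 CPM in the labelled knockout. The groups did not overlap on any of these days. On day 6 WT had 12.1, 9.93 and 13.4 CPM and the labelled knockout 8.65, 10.5 and 7.71 CPM, and here the groups overlapped.

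Kcnn3 was 4.21-fold lower in the labelled knockout on day 0 (log2FC -2.07, SE 0.34, adjusted p = 9.69e-05). It was 2.78-fold lower on day 1 (log2FC -1.48, SE 0.25, adjusted p = 4.61e-05). It was 1.54-fold lower on day 3 (log2FC -0.63, SE 0.19, adjusted p = 0.0109), a call that ended without replicate 3 of the labelled knockout (log2FC -0.55, adjusted p = 0.0536). The day 6 difference did not pass (log2FC -0.40, SE 0.17, adjusted p = 0.0622), and it passed in 10 of 32 alternative analyses, so it sat at the threshold.

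In both genotypes Kcnn3 rose at each step from day 1. In WT its mean went from 2.37 ± 0.585 CPM on day 1 to 5.02 ± 0.699 CPM on day 3 and 11.8 ± 1.76 CPM on day 6 (log2FC per step 1.08 and 1.24, adjusted p = 0.000318 and 6.75e-05). In the labelled knockout it went from 0.848 ± 0.087 to 3.25 ± 0.341 and 8.96 ± 1.44 CPM (log2FC per step 1.93 and 1.46, adjusted p = 1.43e-06 and 1.16e-06). Since day 0 the rise to day 6 was 7.82-fold in WT and 24.97-fold in the labelled knockout (adjusted p = 2.14e-10 and 1.79e-13), and the difference between these changes is a log2 value of 1.68 (SE 0.38, adjusted p = 0.00414). Without replicate 1 of WT on day 0 this difference was 1.25 (adjusted p = 0.0932), and on the log2(TPM + 1) scale it turned to -0.074 (adjusted p = 0.836 by limma).

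Scn4a encodes the pore of Nav1.4, the sodium channel of adult skeletal muscle. It lies on chromosome 11 from 106318592 to 106353288 on the minus strand, with no overlapping gene. On day 0 its counts were at most 2 in every library of both genotypes, so no fold between them is given. On day 1 WT had counts of 6, 9 and 6 and the labelled knockout of 6, 4 and 2, and the groups overlapped. On day 3 the levels were 2.22, 1.73 and 1.87 CPM in WT and 4.12, 2.10 and 2.06 CPM in the labelled knockout. Replicate 1 of the labelled knockout stood apart there, and the other libraries of both genotypes overlapped. On day 6 WT had 4.99, 3.37 and 4.78 CPM and the labelled knockout 11.03, 11.9 and 13.1 CPM, with all of the latter above all of the former.

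The Scn4a difference between the genotypes did not pass on day 1 (log2FC -0.74, SE 0.56, adjusted p = 0.304) or on day 3 (log2FC 0.51, SE 0.27, adjusted p = 0.132). Without replicate 1 of the labelled knockout on day 3, which also had the highest myotube marker sum (5903 CPM), the day 3 log2FC was 0.10 (adjusted p = 0.794). On day 6 Scn4a was 2.74-fold higher in the labelled knockout (log2FC 1.45, SE 0.23, adjusted p = 2.11e-05). All 7 myotube markers were also higher there on day 6, with a median log2FC of 2.61. The part of myotube RNA in the Scn4a difference was not tested.

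During differentiation Scn4a left the floor in both genotypes. In WT it was at least 2.20-fold higher than on day 0 by day 1, at least 14.3-fold by day 3 and at least 32.3-fold by day 6 (adjusted p = 0.0144, 1.60e-07 and 8.65e-10). The bounds in the labelled knockout were 1.27-fold, 19.95-fold and 86.7-fold (adjusted p = 0.0142, 5.84e-10 and 1.10e-13). The day 1 calls were fragile: that of WT ended without replicate 2 of day 0 (log2FC 1.70, adjusted p = 0.156), and that of the labelled knockout without replicate 2 or 3 of day 0 or replicate 1 of day 1 (adjusted p = 0.0537, 0.0571 and 0.0623). From day 3 to day 6 Scn4a rose by a log2FC of 1.17 in WT (SE 0.26, adjusted p = 0.00417) and of 2.12 in the labelled knockout (SE 0.24, adjusted p = 2.62e-07). Because both day 0 groups were at the floor, the difference between the changes since day 0 is not reported.

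Clcn1 encodes ClC-1, the chloride channel that gives muscle most of its resting chloride conductance. It lies on chromosome 6 from 42286685 to 42315756 on the plus strand. Its counts were 3 to 17 in every library, close to the floor of 3. The day 0 counts were 8 and 14 for WT against 5, 3 and 4 for the labelled knockout. The day 6 counts were 8, 17 and 12 for WT against 6 in each of the 3 libraries of the labelled knockout. The groups did not overlap on these days or on day 3 (9, 10 and 8 against 6, 6 and 4), and they did on day 1 (10, 6 and 7 against 6, 6 and 11).

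Between the genotypes, Clcn1 had a log2FC of -1.41 on day 0 (SE 0.49, adjusted p = 0.0496). Its log2FC of -1.01 on day 6 (SE 0.41, adjusted p = 0.0508) fell on the other side of the threshold. The day 0 call ended in 24 of 30 alternative analyses (adjusted p up to 0.455, without replicate 2 of WT on day 0), and the day 6 difference passed in 10 of 30. On days 1 and 3 the log2FC was 0.05 and -0.69 (adjusted p = 0.948 and 0.211). No change since day 0 passed for Clcn1 in WT (log2FC -0.60, -0.35 and 0.10) or in the labelled knockout (log2FC 0.85, 0.37 and 0.49). Clcn1 shares 445 of its 5428 exon bases with Fam131b on the other strand, and whether counting used strand is not given in the sources used here. Fam131b, at 22.2 to 41.0 CPM in group means, had log2FC between the genotypes of -0.16, -0.70, -0.35 and -0.88 on days 0, 1, 3 and 6, with days 1, 3 and 6 passing (adjusted p = 2.61e-07, 0.000851 and 4.15e-09). Reads of both genes could be mixed in the counts, so the Clcn1 values are uncertain.

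Cacna1h encodes Cav3.2, a low-voltage-activated (T-type) calcium channel. It lies on chromosome 17 from 25374285 to 25433783 on the minus strand and shares 158 of 9763 exon bases with Tpsg1, which was at 0 in every library. Its counts were 1 and 2 in WT on day 0 and at most 3 in any library, the 3 being in replicate 1 of WT on day 6. The counts were at most 2 in the labelled knockout. Cacna1h was thus at or under the floor in all 23 libraries, and neither a fold nor a test is given. Its paralog Cacna1g, the gene of the T-type channel Cav3.1 and one of the other calcium channel genes, reached 5.29 ± 0.812 CPM in WT and 0.930 ± 0.135 CPM in the labelled knockout on day 6 (log2FC -2.50, SE 0.26, adjusted p = 3.30e-08).

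**Figure D2:**
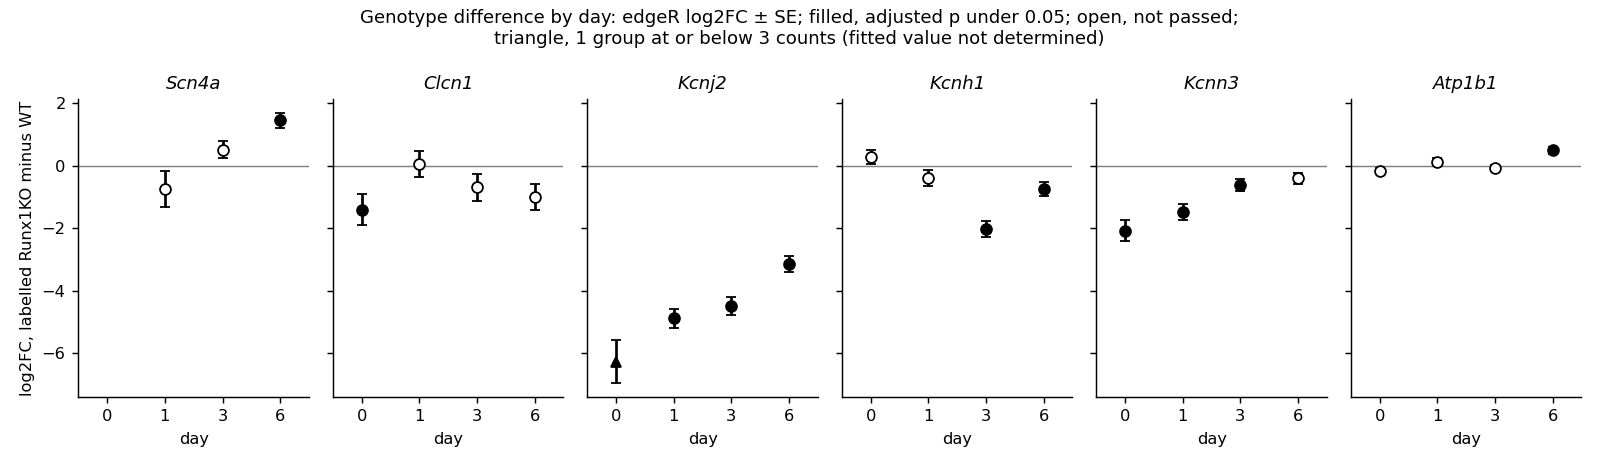
Difference between libraries labelled Runx1KO and WT (edgeR log2FC with its SE, vertical axis) on each day (horizontal axis) for the 6 tested members, filled where the adjusted p was under 0.05 and as a triangle where the labelled knockout was at the floor. Kcnj2 lay below 0 on all 4 days, Kcnn3 came nearer to 0 from day 0 to day 6, Kcnh1 was lowest on day 3, and Scn4a and Atp1b1 lay above 0 on day 6.

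Atp1b1 encodes the beta-1 subunit of the sodium pump, which the catalytic alpha subunit needs to reach the membrane. It lies on chromosome 1 from 164437109 to 164458355 on the minus strand. It was the most abundant member per transcript length, with a mean of 21.9 TPM over all libraries, beside 1.35 TPM for Kcnj2, 0.978 for Kcnn3, 0.712 for Scn4a, 0.701 for Kcnh1, 0.226 for Clcn1 and 0.0052 for Cacna1h. On day 0 its level was 57.3 and 57.8 CPM in WT and 48.5, 51.6 and 53.9 CPM in the labelled knockout. On day 1 it was 18.2, 19.5 and 18.7 CPM in WT and 20.6, 20.6 and 20.3 CPM in the labelled knockout. The libraries of the genotypes did not overlap on either day, yet neither difference passed (log2FC -0.16 and 0.12, adjusted p = 0.386 and 0.391). On day 3 it was 26.7, 25.1 and 28.4 CPM in WT and 29.5, 21.7 and 25.04 CPM in the labelled knockout, with overlap (log2FC -0.07, adjusted p = 0.605). On day 6 it was 33.8, 25.5 and 30.3 CPM in WT and 36.4, 42.6 and 46.6 CPM in the labelled knockout, all of the latter above all of the former. That day Atp1b1 was 1.40-fold higher in the labelled knockout (log2FC 0.49, SE 0.11, adjusted p = 0.00061).

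Both genotypes lost Atp1b1 RNA when differentiation began. From day 0 to day 1 the log2FC was -1.61 in WT (SE 0.12, adjusted p = 7.27e-11) and -1.33 in the labelled knockout (SE 0.11, adjusted p = 5.92e-10). The WT level then rose from day 1 to day 3 (log2FC 0.51, adjusted p = 0.00161), and the step to day 6 did not pass (log2FC 0.16, adjusted p = 0.414). The step from day 3 to day 6 was the larger rise in the labelled knockout (log2FC 0.72, adjusted p = 8.54e-06), whereas the step from day 1 to day 3 sat at the threshold (log2FC 0.31, adjusted p = 0.0368). That call ended in 19 of 32 alternative analyses, with an adjusted p of up to 0.235 and a log2FC of 0.19 without replicate 1 of day 3. By day 6 Atp1b1 was 1.93-fold below day 0 in WT (adjusted p = 1.79e-07) and 1.23-fold below it in the labelled knockout (adjusted p = 0.0146). The difference between these changes is a log2 value of 0.65 (SE 0.16, adjusted p = 0.00562). The Atp1b1 call since day 0 in the labelled knockout ended without replicate 3 of day 0 (log2FC -0.26, adjusted p = 0.0564) or replicate 1 of day 6 (log2FC -0.20, adjusted p = 0.108). Atp1b1 shares 575 of 3081 exon bases with Nme7 on the other strand, and Nme7 had log2FC between the genotypes of -0.24, -0.17, -0.20 and -0.51 on days 0, 1, 3 and 6, with days 0, 3 and 6 passing (adjusted p = 0.0455, 0.0292 and 8.14e-06). The sign was that of Atp1b1 on days 0 and 3 and the opposite on days 1 and 6. The Atp1b1 values are uncertain for the same reason as those of Clcn1.

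**Figure D3:**
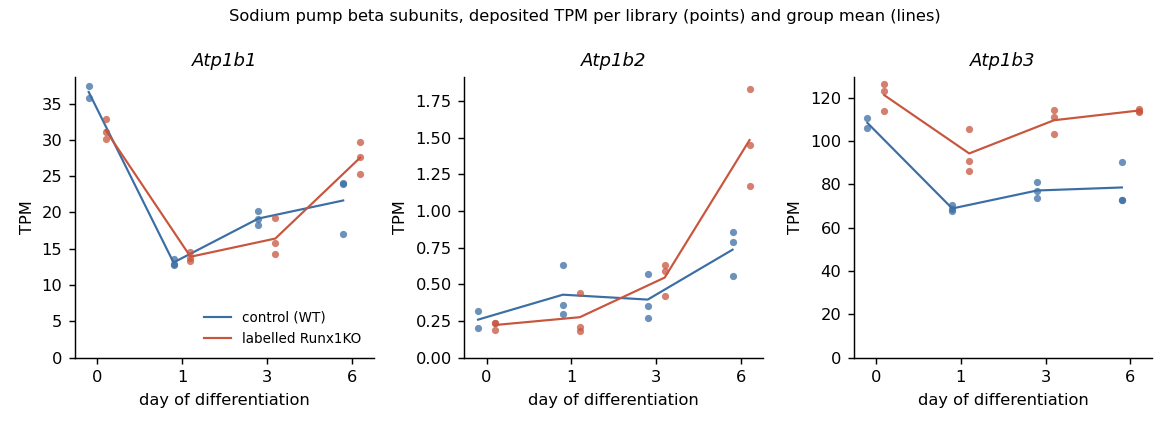
Deposited TPM of the beta subunit genes Atp1b1, Atp1b2 and Atp1b3 (vertical axis) by day (horizontal axis), with 1 point per library and lines through the group means, WT in blue and libraries labelled Runx1KO in red. All 3 genes had a higher mean in the labelled knockout on day 6.

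Set beside other beta subunits of the pump, Atp1b1 was not the main beta subunit RNA by TPM. On day 6 the level of Atp1b3, the beta-3 subunit, was 72.74 to 90.1 TPM in WT and 113.6 to 114.8 TPM in the labelled knockout (n = 3 each), beside 21.7 ± 4.03 and 27.6 ± 2.19 TPM for Atp1b1. Atp1b2, the beta-2 subunit, was then at 0.737 ± 0.157 and 1.48 ± 0.331 TPM. Both were higher than in WT on day 6 in the count test, with a log2FC of 1.15 for Atp1b2 (adjusted p = 0.00411) and 0.67 for Atp1b3 (adjusted p = 5.49e-08). Atp1b3 was already higher on days 1 and 3 (log2FC 0.49 and 0.66, adjusted p = 9.92e-06 and 1.05e-07), when the Atp1b1 difference did not pass. Fxyd5, a small regulatory subunit, was lower than in WT on days 1, 3 and 6, with a log2FC of -0.93 on day 6 (adjusted p = 1.94e-06).

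Measured from day 0, 5 of the 6 tested members changed by day 1 in WT (background 54.7%), 5 by day 3 (58.2%) and 4 by day 6 (63.6%). Of the same 6 in the labelled knockout, 5 changed by each of days 1, 3 and 6 (52.3%, 57.6% and 70.0%), although the day 1 count in either genotype was 3 with only the groups compared, and on the log2(TPM + 1) scale it was 3 in WT and 2 in the labelled knockout. In both, Scn4a, Kcnj2 and Kcnn3 were the members that rose, and Kcnh1 and Atp1b1 those that fell, except that Kcnh1 on day 6 in WT did not pass. The Kcnh1 fall on day 3 in WT (log2FC -0.57, adjusted p = 0.0411), 1 of the 5 calls of that day, ended in 15 of 32 alternative analyses, including those without either WT library of day 0 or any WT library of day 3. Without replicate 2 of WT on day 0, the WT count on day 1 was 3, since the Scn4a and Kcnn3 calls ended. All later days were compared with the same day 0 libraries, and the change of medium and the passing of time cannot be told apart in these comparisons. Between later days, 4 members rose from day 1 to day 3 in WT and 2 from day 3 to day 6, when 11.0% and 4.87% of all genes rose. The labelled knockout had 3 and 5 members that rose at these steps, beside 15.5% and 20.2% of all genes, and 1 of the 3 was Atp1b1, whose call ended in 19 of 32 alternative analyses. The change since day 0 differed between the genotypes for none of the 6 on day 1 (3.95% of all genes), for 2 on day 3 (10.7%) and for 4 on day 6 (13.0%). The day 6 count includes Kcnj2, which had at most 1 count in any labelled knockout library on day 0. On the log2(TPM + 1) scale its day 6 value turned to -0.99, so it is not well determined. These counts also leaned on single libraries. The day 3 count was 1 without replicate 1 of day 0 of either genotype. The day 6 count was 1 without replicate 1 of WT on day 0, and 2 without replicate 2 of WT on day 0, replicate 1 of WT on day 6, or, in the labelled knockout, replicate 3 of day 0 or replicate 2 of day 6.

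**Figure D4:**
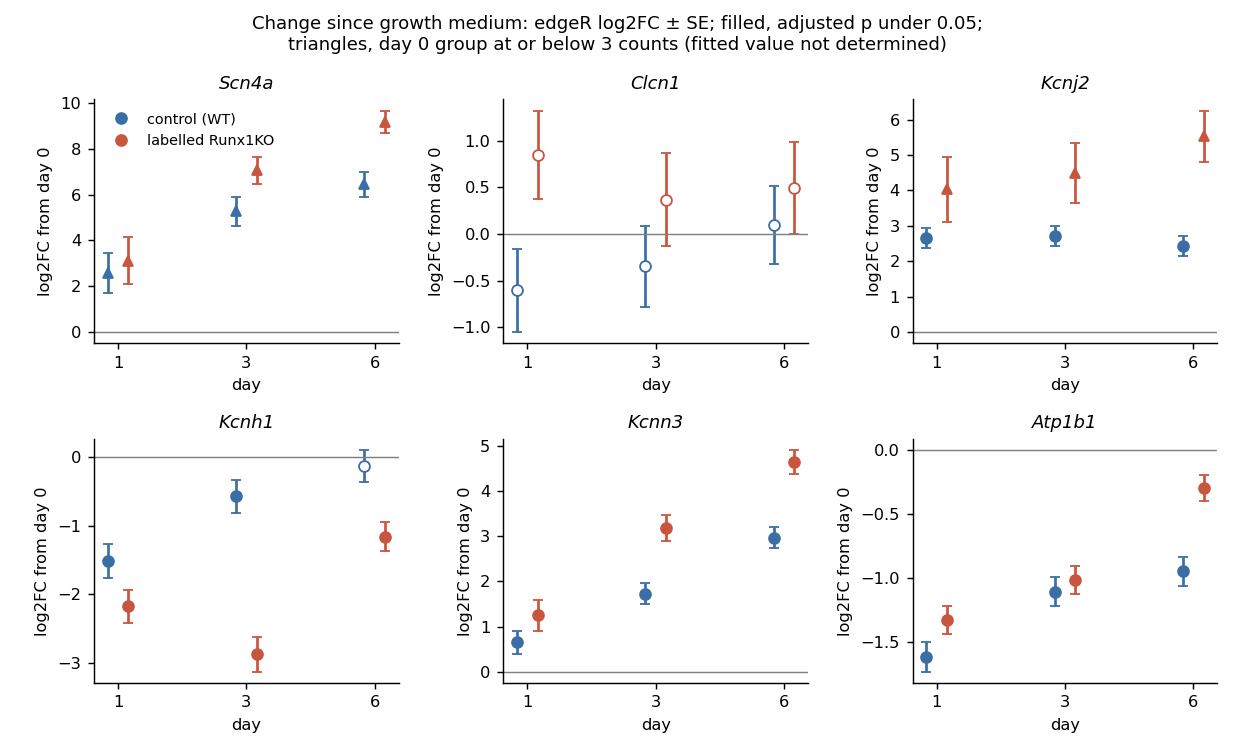
Change since growth medium (edgeR log2FC with its SE, vertical axis, scaled per gene) on days 1, 3 and 6 (horizontal axis) in WT (blue) and libraries labelled Runx1KO (red), filled where the adjusted p was under 0.05 and as triangles where day 0 was at the floor. The Kcnh1 values parted most on day 3, Kcnn3 rose in both genotypes, and Atp1b1 stayed below 0 throughout.

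Ordered by group mean, the 8 groups ranked differently for each member. For Scn4a the labelled knockout on day 6 (12.003 CPM) came first, without overlap with WT on day 6 (4.38 CPM), which overlapped the labelled knockout on day 3 (2.76 CPM), which overlapped WT on day 3 (1.94 CPM). For Kcnj2 the 3 differentiating WT groups came first, each overlapping the next, WT on day 0 followed, and all 4 groups of the labelled knockout came last. For Kcnn3 both day 6 groups came first and overlapped, then both day 3 groups, which did not. For Kcnh1 both day 0 groups and WT on day 6 came first and overlapped in turn, and the labelled knockout on day 3 came last, overlapping the same cells on day 1. For Atp1b1 both day 0 groups came first and both day 1 groups last. All neighbouring Clcn1 groups in the order overlapped.

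The genes whose log2 level followed each member most closely over the 23 libraries were found among about 10048 tested genes with a mean of at least 5 CPM, as a description that carries no test, since the libraries share their groups and their days. For Scn4a they were Tmem38a, a cation channel of the sarcoplasmic reticulum (Pearson r = 0.988), Osmr, the oncostatin M receptor (0.980), and Lmod2, an actin filament nucleator of muscle (0.980). For Kcnj2 they were Nynrin (r = 0.989), Nfatc4, a calcium-regulated transcription factor (0.984), and Acaa2, an enzyme of mitochondrial fatty acid oxidation (0.982). Nfatc4 was at 30.6, 39.2 and 44.4 CPM in WT on days 1, 3 and 6 and at 1.51, 2.73 and 4.03 CPM in the labelled knockout. For Kcnh1 they were Inhba, which encodes an activin subunit (r = 0.955), Ccnd2, which encodes cyclin D2 (0.927), and Zc2hc1a (0.913). For Kcnn3 they were Mfap5, a microfibril protein (r = 0.961), C1ra, a complement protease (0.957), and Enpp1, a pyrophosphatase (0.957). For Atp1b1 they were Asns, asparagine synthetase (r = 0.956), Mthfd2, an enzyme of mitochondrial folate metabolism (0.948), and Eef1g, a translation elongation factor (0.946). For Clcn1, close to the floor, the highest r was 0.727, shared by Tmem185b and Aldh4a1, with Ehd3 at 0.723. Among the members themselves the highest correlation was that of Scn4a with Kcnn3 (r = 0.900), and the lowest that of Kcnj2 with Atp1b1 (r = -0.42).

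The relatives of the members were taken from 8 lists of channel and pump genes that leave the members out. Of 156 symbols 154 were in the table, 61 passed the filter on low counts, and 70 were at or under the floor in every library. Of the 61, 5 were higher and 6 lower in the labelled knockout than in WT on day 0, when 7.36% of all genes were higher and 10.1% lower, so these counts lay near the background. On day 1 the counts were 11 and 18 (22.9% and 19.2% of all genes), on day 3 they were 14 and 21 (24.0% and 19.2%), and on day 6 they were 23 and 14 (22.0% and 20.8%). The median log2FC of the 61 on day 6 was 0.07, beside 0.00 for all genes tested, with genes at the floor on their bound or at their fitted value alike.

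The counts that follow compare the labelled knockout with WT on the same day. On day 6, 22.0% of all genes tested were higher and 20.8% lower. Of 16 listed genes of inward rectifier channels other than Kcnj2, which include the subunits of ATP-sensitive channels, 4 were tested. On day 6, 3 of them were higher and none lower, namely Kcnj11, Abcc8 and Abcc9. These 3 were at or under the floor in WT on every day, so they passed the filter through the labelled knockout. Their count follows in part from that filter and is not read as a result about the list. Abcc9, the sulphonylurea receptor that partners Kir6 pores, was at least 26.5-fold higher (adjusted p = 1.20e-08), at 3.43 ± 0.066 CPM in the labelled knockout against 0.014 CPM in WT. The fourth, Kcnj12, the gene of Kir2.2, had a log2FC of -0.40 (adjusted p = 0.598). The median log2FC of the 4 was 3.23, or 2.72 with genes at the floor on their bound, and it is shaped by the same filter. Of 6 tested sodium channel genes, 1 was higher and 3 lower on day 6 (median log2FC -0.57), and Scn9a, the gene of Nav1.7, had a log2FC of -3.20 (adjusted p = 3.31e-08), at 0.276 ± 0.092 CPM against 2.57 ± 0.780 CPM in WT, while Scn4a was higher. Of 10 chloride channel genes, 4 were higher and none lower (median 0.18), and Clcn3, an endosomal chloride transporter, had a log2FC of 0.60 (adjusted p = 0.000256).

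On day 3, when Kcnh1 was lower than in WT, 10 of the 14 tested voltage-gated potassium channel genes were lower and 1 higher, beside 19.2% of all genes lower and 24.0% higher that day (median log2FC -0.86, against 0.04 for all genes). On day 6 the counts were 3 lower and 2 higher of 14 (median -0.47), near the 20.8% of all genes lower and 22.0% higher that day. Kcnd1, the gene of Kv4.1, was lower in the labelled knockout on all 4 days (log2FC -2.62, -2.52, -2.14 and -2.04). Of 10 other listed genes of calcium- and sodium-activated potassium channels, 3 were tested. All 3 were lower than in WT on day 6 (median log2FC -1.55), beside 20.8% of all genes, when Kcnn3 itself did not pass. Among them Kcnn1, the gene of SK1, was lower on all 4 days (log2FC -1.20, -1.69, -1.92 and -1.58). Of 14 listed genes of two-pore potassium channels, which carry leak currents, 4 were tested, and 2 were higher and 1 lower on day 6. The median of 2.22 leans on Kcnk13, which passed the filter through the labelled knockout. Its counts were at most 13 in any WT library, and 46 to 119 in the labelled knockout on days 3 and 6. Kcnk13 was at least 33.3-fold higher (4.31 ± 0.703 CPM, with WT at or under the floor), and Kcnk2, the gene of TREK-1, had a log2FC of -0.72 (adjusted p = 0.000244).

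Of the 13 tested calcium channel genes, relatives of Cacna1h, 6 were higher and 3 lower on day 6 (median 0.54). Of all genes, 22.0% were higher and 20.8% lower that day, so the number lower lay near the background. Cacng6, a gamma subunit of voltage-gated calcium channels, had counts of 25, 40 and 45 in the labelled knockout on day 6 and of 0, 1 and 5 in WT (adjusted p = 2.30e-05). The groups did not overlap, and no fold is given because only 1 WT library exceeded the floor. Of the 7 tested pump genes beside Atp1b1, 5 were higher and 1 lower on day 6 (median 0.67). On day 3 the counts were 4 and 2 (median 0.61), beside 24.0% and 19.2% of all genes.

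**Figure D5:**
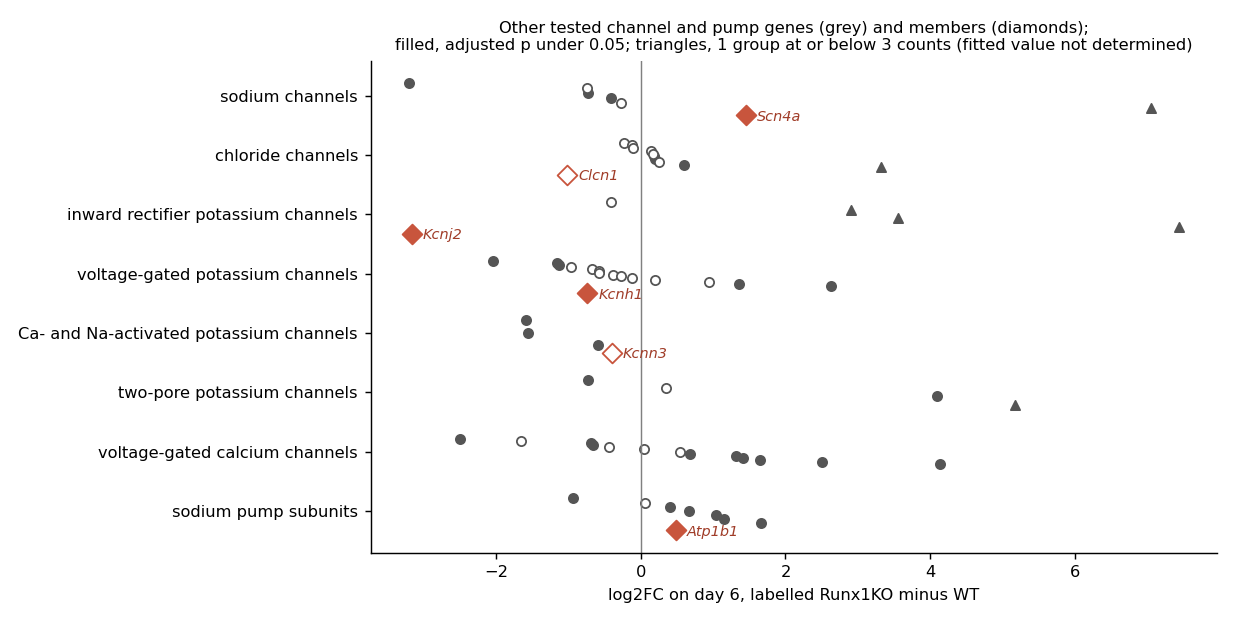
Difference between libraries labelled Runx1KO and WT on day 6 (edgeR log2FC, horizontal axis) for the tested genes of each channel or pump list (rows), with members as diamonds, other genes as grey circles or, where 1 group was at the floor, triangles, and filled marks for an adjusted p under 0.05. Kcnj2 at -3.15 stood beside 4 other tested genes of its list. Of these, 3 were higher, all of them subunits of ATP-sensitive channels at or under the floor in WT. Scn4a at 1.45 stood beside 6 other tested sodium channel genes, of which 1 was higher and 3 lower. Of all genes, 22.0% were higher and 20.8% lower.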

How the data were processed

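Per the labels' protocols, poly(A) RNA of 23 libraries was sequenced. The authors deposited estimated counts per gene symbol (whole numbers; 790 entries are 0 with a TPM above 0) and TPM, normalised by the authors for transcript length and depth. Bowtie2, RSEM and mm10 are named in the submitters' processing notes; annotation, strand use and versions are not given in the sources used here. The estimated counts, rounded (which changed none), were tested with edgeR 4.0.16 (R 4.3.3) by quasi-likelihood in 1 group-means model over all libraries, with TMM scaling, filterByExpr (minimum count 10, minimum total 15; 14187 genes kept) and Benjamini-Hochberg adjustment over all of them, called at an adjusted p under 0.05; SE is |log2FC| divided by the root of F. The procedure was tested on simulated data. Alternatives used limma 3.58.1 on log2(TPM + 1) and log2(TPM + 0.1), DESeq2 1.42.0, other scalings and filters, a replicate block and leaving out each library. Coordinates come from GENCODE vM21 (GRCm38, the assembly of mm10).

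The members and lists were chosen with earlier results of these data known. Genes named are the members, Runx1, the pump subunits Atp1b2 and Atp1b3, in each list the called gene with the most positive and the most negative log2FC on day 6 if a group mean reached 1 CPM, and for each member the 3 genes with the highest correlation. Some other genes that this rule names are not reported here. Genes that overlap or neighbour a member were named by position, and the remaining genes of the inward rectifier list after their values were seen. Marker lists covered myoblast, myotube, neuron or glia, heart muscle, smooth muscle, endothelium, immune and adipocyte genes. Summed levels were at most 1.68 CPM for heart muscle, 1.25 for endothelium and 12.2 for immune genes, and adipocyte genes were at or under the floor.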

Additional observations from a re-analysis of the deposited data

Results flagged for a closer look

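The change since growth medium differed between the genotypes for 4 members by the interaction term of the edgeR model, where no member of the 6 tested passed on day 1 (3.95% of all genes), 2 on day 3 (10.7%) and 4 on day 6 (13.0%). On day 1 none passed at an adjusted p under 0.05 for any tested member. All these terms share the day 0 libraries.

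For Kcnh1 the difference of the changes (labelled knockout minus WT, log2) was -2.30 on day 3 (adjusted p = 8.45e-05) and -1.02 on day 6 (adjusted p = 0.034). The Kcnh1 day 6 value missed the threshold in 9 of 32 alternatives, among them those without either WT library of day 0 (adjusted p = 0.0592 and 0.15), WT replicate 1 or 3 of day 6 (0.0503 and 0.0566), replicate 3 of the labelled knockout on day 0 (0.112) and its replicate 2 or 3 on day 6 (0.0771 and 0.0721).

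For Kcnn3 it was 1.45 on day 3 (adjusted p = 0.0183) and 1.68 on day 6 (adjusted p = 0.00414), and on the log2(TPM + 1) scale these turned to -0.07 and -0.074 (adjusted p = 0.864 and 0.836 by limma). Without WT replicate 1 of day 0 the Kcnn3 values were 1.01 and 1.25 (adjusted p = 0.215 and 0.0932), and without replicate 1 of the labelled knockout on day 0 the day 3 value was 1.22 (adjusted p = 0.089).

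For Atp1b1 it was 0.65 on day 6 (adjusted p = 0.00562), and this kept its side of the threshold in 32 of 32 alternatives.

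For Kcnj2 it was 3.11 on day 6 (adjusted p = 0.0344). This value is not well determined, because Kcnj2 was at or under 1 count in every library labelled Runx1KO on day 0, and on the log2(TPM + 1) scale the Kcnj2 value was -0.99.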

How the results depend on the processing

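Of 98 results for single genes, 65 kept their direction and their side of the threshold under every alternative run. Of the 61 called ones 44 did, and 3 turned their direction in some alternative. Depth limits Cacna1h, Clcn1, Scn4a on days 0 and 1 and Kcnj2 in the labelled knockout. On log2(TPM + 1), which compresses low levels, the number of members called was 1 on day 0 between the genotypes, 3 on day 1 since day 0 in WT, 2 in the labelled knockout and 1 for the interaction on day 1; on log2(TPM + 0.1) it was 2 for the interaction on day 6. With only the groups compared, it was 3 on day 1 since day 0 in WT and 3 in the labelled knockout. With 1 library left out, it ran from 3 to 5 on day 1 since day 0 in WT, from 1 to 2 for the interaction on day 3 and from 1 to 4 on day 6.

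On log2(TPM + 1) and log2(TPM + 0.1), Kcnj2 turned to -1.27 and -1.11 for the interaction on day 1, -1.39 and -1.41 on day 3 and -0.99 and -0.45 on day 6, and to -0.045 and -0.199 from day 1 to day 3 in the labelled knockout. Kcnh1 turned to 0.028 and 0.044 on day 6 since day 0 in WT, Clcn1 to -0.018 and -0.093 on day 1 between the genotypes, and Atp1b1 to -0.002 and -0.008 for the interaction on day 3. Kcnn3 turned to -0.073, -0.07 and -0.074 for the interaction on days 1, 3 and 6 on log2(TPM + 1). The cause was not tested.

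With 1 library left out, Atp1b1 ran from -0.195 to 0.027 on day 3 between the genotypes and from -0.031 to 0.192 for the interaction on day 3, and Kcnj2 from -0.004 to 0.15 from day 1 to day 3 in WT. Kcnh1 ran from -0.24 to 0.02 on day 6 since day 0 in WT. Clcn1 ran from -0.32 to 0.27 on day 1 between the genotypes, and since day 0 in WT from -0.68 to 0.15 on day 3 and -0.24 to 0.59 on day 6. In the labelled knockout it ran from -0.045 to 0.219 from day 3 to day 6, and for the interaction on day 6 from -0.10 to 0.73. The Kcnh1 fall since day 0 on day 3 in WT (log2FC -0.57, adjusted p = 0.0411) ended in 15 of 32 alternatives, among them those without either WT library of day 0 (adjusted p = 0.259 and 0.0676) or any WT library of day 3 (0.0609, 0.0986 and 0.1). The Kcnn3 rise on day 1 in WT (0.65, adjusted p = 0.0352) ended in 5, among them those without WT replicate 2 of day 0 or WT replicate 1 or 3 of day 1 (adjusted p = 0.374, 0.0893 and 0.1). The genotype calls of Kcnj2 on days 0, 1, 3 and 6, Kcnn3 on day 1, Kcnh1 on days 3 and 6, and Scn4a and Atp1b1 on day 6 held in all 32.

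Replicate numbers did not pair the libraries: same-numbered libraries of the genotypes had mean correlations of their deviations of 0.049, 0.003, 0.017 and -0.094 on days 0, 1, 3 and 6. With a replicate block, Clcn1 on day 0 (log2FC -1.39, adjusted p = 0.076) and the Kcnh1 interaction on day 6 (-1.01, adjusted p = 0.0524) missed the threshold, and no other call changed.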
